A study of Homo sapiens with 8 samples.

Results

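The genes described here are 9 markers by which bile duct cells and the progenitor cells of the liver are recognised: CD24, SPP1, EPCAM, SOX9, SOX4, PROM1, ANPEP, CD44 and NCAM1. They were taken by symbol from the protein-coding rows of a table of 58735 genes, 19951 of them protein-coding, and each symbol matched 1 row. RNA-seq levels, as FPKM (fragments per kilobase of gene, after the authors' own scaling to library size), were given for 8 libraries in 3 groups. The first group, M14A printed (2 libraries), held gene-edited HepaRG cells labelled as transfected with FoxM1 and HNF4A, detached from flasks, mixed into the GP bioink and taken 4 hours after bioprinting, when the printed material was snap-frozen and crushed with a mortar. The second, M14A plate (3 libraries), held the same edited cells from flat culture, and the third, HepaRG plate (3 libraries), held the unedited WT parent line from flat culture; both were detached and spun down before RNA extraction. HepaRG is a human bipotent liver progenitor line that can give rise to hepatocyte-like and bile duct-like cells, and all 8 libraries carry the label of hepatic stem cells. Whether M14A is a single clone, how the edit was made, and whether replicates came from separate cultures are not stated by the sources at hand, so p-values here speak only of how far these libraries differ among themselves, which may be technical. Printing, bioink, the hours after detachment and the freezing and crushing step all separate printed from plate cells and cannot be told apart.

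In the liver, hepatocytes and cholangiocytes, the lining cells of the bile ducts, arise from a common precursor, the hepatoblast. Notch signals and SOX9 with SOX4 drive the biliary fate in mice, while HNF4A drives the hepatocyte fate. After injury, ductular cells with progenitor features appear that carry surface glycoproteins such as EPCAM, CD24, PROM1 (CD133), CD44 and NCAM1 (CD56) and secrete osteopontin, the product of SPP1. ANPEP (CD13) has been used as a marker of liver stem-like cells, and it is also a resident enzyme of the bile canalicular membrane of hepatocytes, so it does not belong to progenitors alone.

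Libraries held 15632154 to 19148262 reads as recovered from the FPKM. HNF4A stood at 17.1 and 13.6 FPKM in printed cells, 37.9 to 43.1 FPKM in M14A plate cells and 5.67 to 6.50 FPKM in HepaRG cells. FOXM1 stood at 10.1 and 10.1 FPKM in printed cells, 8.92 to 13.0 FPKM in M14A plate cells and 12.9 to 14.9 FPKM in HepaRG cells, so its transcript was not higher in the libraries labelled as carrying the edit. M14A plate library 1 stood apart from its group, with correlations of 0.957 and 0.948 with libraries 2 and 3, against 0.988 between those. Mitochondrial genes took 13.3 and 16.4% of the reads in printed cells, 8.21 to 9.72% in M14A plate cells and 6.91 to 7.25% in HepaRG cells, and their part in the differences of printed cells was not tested. In bulk RNA, fewer cells that express a gene and less of its RNA per cell cannot be told apart.

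The sequences just before the transcription start of 4 genes are shown because these genes carry the differences described below: CD24 and SPP1 were lower and ANPEP higher in the edited line, and SOX4 was lower after printing. Each is the 250 bases upstream of a RefSeq transcript start on GRCh38.p14, read 5′ to 3′ on the gene's own strand, with capitals marking the HNF1 half-site GTTAAT. CD24 lies at chr6:106975628-106975877 on the minus strand, SPP1 at chr4:87975464-87975713 on the plus strand, ANPEP at chr15:89806629-89806878 on the minus strand, at the inner of its annotated starts, and SOX4 at chr6:21593501-21593750 on the plus strand.
CD24: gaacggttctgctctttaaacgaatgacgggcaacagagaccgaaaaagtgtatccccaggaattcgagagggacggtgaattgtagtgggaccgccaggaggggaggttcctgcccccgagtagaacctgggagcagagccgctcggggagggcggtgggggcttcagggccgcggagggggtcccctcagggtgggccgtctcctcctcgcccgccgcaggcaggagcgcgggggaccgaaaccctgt
SPP1: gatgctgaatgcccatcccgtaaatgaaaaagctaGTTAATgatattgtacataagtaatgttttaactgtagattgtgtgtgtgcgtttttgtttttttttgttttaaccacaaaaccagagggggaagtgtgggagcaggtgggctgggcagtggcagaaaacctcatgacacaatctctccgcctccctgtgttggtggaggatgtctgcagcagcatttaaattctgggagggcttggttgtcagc
ANPEP: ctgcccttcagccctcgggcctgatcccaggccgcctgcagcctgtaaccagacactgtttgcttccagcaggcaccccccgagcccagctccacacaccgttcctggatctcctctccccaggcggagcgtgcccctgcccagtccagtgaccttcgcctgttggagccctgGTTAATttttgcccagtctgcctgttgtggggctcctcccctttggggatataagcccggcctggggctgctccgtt
SOX4: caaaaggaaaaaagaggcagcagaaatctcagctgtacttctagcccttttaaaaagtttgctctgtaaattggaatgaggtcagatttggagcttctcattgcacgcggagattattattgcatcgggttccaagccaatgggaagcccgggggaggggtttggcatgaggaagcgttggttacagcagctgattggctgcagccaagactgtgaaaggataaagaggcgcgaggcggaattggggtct
These windows were searched on both strands for 6 motifs: the TATA box TATAAA, the forkhead motif TGTTTAC, the HNF4 motif CAAAGTCCA, the HNF1 half-site GTTAAT, the AP-1 motif TGANTCA and the SOX motif ACAATG. The half-site GTTAAT occurred in the windows of SPP1, beginning 215 bases before the start, and of ANPEP, beginning 77 bases before it, so it was shared by a gene that was lower and a gene that was higher in M14A plate cells. It is present in 6.24% of 34943 promoter windows of the same length. None of the 6 motifs occurred in the windows printed for CD24 and SOX4. TATAAA is present in 10.8% of all windows, TGTTTAC in 2.98%, CAAAGTCCA in 0.326%, TGANTCA in 6.59% and ACAATG in 9.30%. Windows were found for 6 of the 9 markers, 12 windows in all. Of the windows not printed, 1 at an inner start of PROM1 held TGAGTCA, beginning 189 bases before the start. The others not printed, among them the window of the outer ANPEP start, held none of the 6 motifs.

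The marker genes spanned a wide range of levels. ANPEP was above 97.5% of protein-coding genes in HepaRG cells and above 99.1% in M14A plate cells, whereas EPCAM was listed at 0 in every edited library. Testing used limma on log2(FPKM + 1) across the 14349 genes that reached 1 FPKM in 2 or more libraries, and calls were made where the p adjusted by Benjamini and Hochberg's method lay below 0.05. Of the 9 markers 7 entered this test, and PROM1 and EPCAM lay under the filter. CD24 entered it only through its level in HepaRG cells. Of the list genes named below, LRAT, COL1A1 and PDGFRB did so too, which favours a fall in M14A cells. TFF3, KRT7, CLDN4, KDR, LAPTM5, SOX15 and APOA1 entered it only through M14A cells, which favours a rise there.

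Between M14A plate and HepaRG plate cells, 2 of the 7 tested markers were called higher (ANPEP and CD44) and 3 lower (CD24, SPP1 and SOX9). Among all genes tested 16.1% were called higher, 14.7% lower and 30.9% in either direction. The median log2 fold change was -0.26 over the 7 markers and -0.04 over all genes. Between printed and plate M14A cells, 1 marker was called, SOX4, which was lower; among all genes 17.7% were called higher, 15.5% lower and 33.2% either way. The medians there were 0.09 for the markers and 0.01 for all genes. Between printed M14A and HepaRG plate cells, ANPEP and CD44 were called higher and CD24, SPP1, SOX4 and SOX9 lower, with backgrounds of 28.1% higher, 28.1% lower and 56.2% either way and medians of -0.53 for the markers and -0.05 for all genes. The comparisons share libraries, and printed against HepaRG plate combines the edit with printing.

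**Figure D1:**
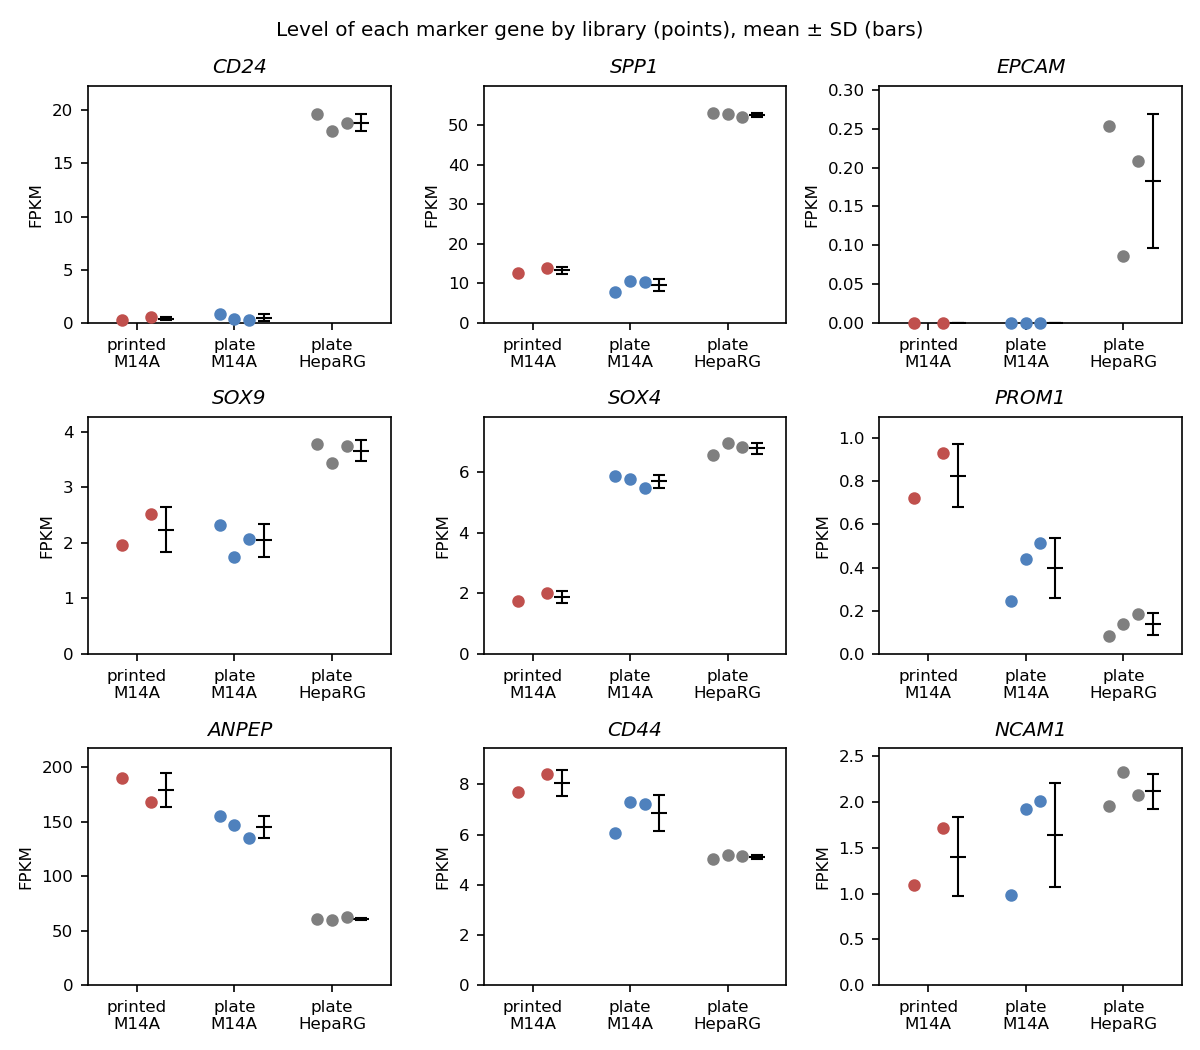
FPKM of the 9 markers in each library, 1 panel per gene on a linear axis that starts at 0, with M14A printed, M14A plate and HepaRG plate from left to right. Points are libraries, and the bars beside them give the group mean ± SD. CD24 and SPP1 stand at 18.8 and 52.6 FPKM in HepaRG cells, far above every M14A library. ANPEP is lowest in HepaRG cells, and SOX4 is low in printed cells only.

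CD24 encodes a small, heavily glycosylated protein tethered to the cell surface by a lipid anchor. Its gene lies on chromosome 6 at 106969831 to 106975627 on the minus strand (GRCh38). It had 0.290 and 0.538 FPKM in printed cells, 0.869, 0.380 and 0.279 FPKM in M14A plate cells and 19.6, 18.0 and 18.8 FPKM in HepaRG cells. Every M14A library lay below every HepaRG library, and the edited groups overlapped each other. The mean was 0.509 ± 0.315 FPKM in M14A plate cells and 18.8 ± 0.807 FPKM in HepaRG cells (SD, n = 3 each), 36.9-fold lower in M14A plate cells. The log2 fold change was -3.73 (SE 0.16, limma, adjusted p 1.0e-06); this scale understates the change of a gene so low in one group. CD24 showed the largest fall of the tested markers in this comparison. After printing, the change of CD24 was not called (limma log2 fold change -0.08, 95% interval -0.49 to 0.32, adjusted p 0.76). It rested there on 39 reads in printed cells and 83 in M14A plate cells, and processed pseudogenes of CD24 are annotated, so its low values are uncertain.

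SPP1 encodes osteopontin, a secreted phosphoprotein that binds integrins and CD44; the gene lies on chromosome 4 at 87975650 to 87983426 on the plus strand. It had 12.6 and 13.9 FPKM in printed cells, 7.95, 10.5 and 10.5 FPKM in M14A plate cells and 53.0, 52.8 and 51.9 FPKM in HepaRG cells. The groups did not overlap, with HepaRG highest and M14A plate lowest. Its mean of 9.65 ± 1.47 FPKM in M14A plate cells was 5.45-fold lower than the 52.6 ± 0.579 FPKM of HepaRG cells (SD, n = 3 each), with a log2 fold change of -2.34 (SE 0.14, limma adjusted p 5.2e-06). SPP1 stood above 79.9% of protein-coding genes in M14A plate cells, where CD24 stood above 41.9% of them. SPP1 was 1.37-fold higher in printed than in plate M14A cells by the group means, which missed the threshold (log2 fold change 0.43, 95% interval 0.08 to 0.78, adjusted p 0.058). That value depended on the scaling and on a single library: with FPKM totals made equal it was -0.27, and without M14A plate library 1, the lowest of its group, it was 0.31 with an adjusted p of 0.012. Median-ratio scaling gave 0.46 with an adjusted p of 0.046.

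EPCAM encodes the epithelial cell adhesion molecule, which in adult human liver is found on bile duct and progenitor cells and not on mature hepatocytes. Its gene lies on chromosome 2 at 47345158 to 47387601 on the plus strand. It was listed at 0 in both printed and all 3 M14A plate libraries and had 0.253, 0.0863 and 0.209 FPKM in HepaRG cells, from 28 reads in all. HepaRG libraries were thus low but not at 0, and every M14A library was below them. Against a floor of 3 reads over the group, EPCAM was at least 4.54-fold lower in printed cells and at least 8.46-fold lower in M14A plate cells than in HepaRG cells. These bounds cover counting error in the M14A groups only, and not that of the 28 HepaRG reads. In a limma fit without the filter on low values (36423 genes), its log2 fold changes of -0.24 against HepaRG passed the threshold in both edited groups, with adjusted p-values of 0.022 in printed cells and 0.025 in M14A plate cells. The M14A libraries, all at 0, showed no spread. The spread behind these p-values is thus set in part by the floor and may be too small.

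SOX9 and SOX4 encode HMG-box transcription factors that act together in bile duct formation in the mouse. SOX9 lies on chromosome 17 at 72121020 to 72126420, plus strand. It had 1.96 and 2.52 FPKM in printed cells, 2.32, 1.74 and 2.07 FPKM in M14A plate cells and 3.78, 3.44 and 3.75 FPKM in HepaRG cells. All M14A libraries lay below all HepaRG libraries, and printed and plate M14A cells overlapped. SOX9 fell in M14A plate cells, 1.79-fold by the means, with a log2 fold change of -0.62 (SE 0.12, limma adjusted p 0.0058). In printed against plate M14A cells it was 0.09 (95% interval -0.23 to 0.40, adjusted p 0.65), and in printed against HepaRG cells -0.53 (adjusted p 0.011). This last call was lost without printed library 1 (-0.40, adjusted p 0.092) and under quantile normalisation (-0.37, adjusted p 0.075).

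SOX4 behaved differently across the groups. The gene lies on chromosome 6 at 21592768 to 21598619, plus strand, and had 1.75 and 2.01 FPKM in printed cells, 5.86, 5.75 and 5.46 FPKM in M14A plate cells and 6.56, 6.94 and 6.82 FPKM in HepaRG cells. The printed libraries lay far below the others, while M14A plate and HepaRG libraries stood close together without overlapping. SOX4 fell in printed cells, to a mean of 1.88 ± 0.186 FPKM (SD, n = 2) against 5.69 ± 0.206 FPKM in M14A plate cells (SD, n = 3), a 3.03-fold difference. The log2 fold change was -1.22 (SE 0.11, 95% interval -1.48 to -0.95, limma adjusted p 5.7e-04), and it was called in all 20 alternative settings, at -1.72 to -1.09. In M14A plate against HepaRG cells, SOX4 did not pass (-0.22, 95% interval -0.45 to 0.02, adjusted p 0.14). It did pass there in 4 of 20 alternatives, at -0.40 and -0.33 with equal FPKM totals, with and without mitochondrial genes, at -0.31 after removal of the trend with GC content and gene length, and at -0.23 without M14A plate library 1.

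**Figure D2:**
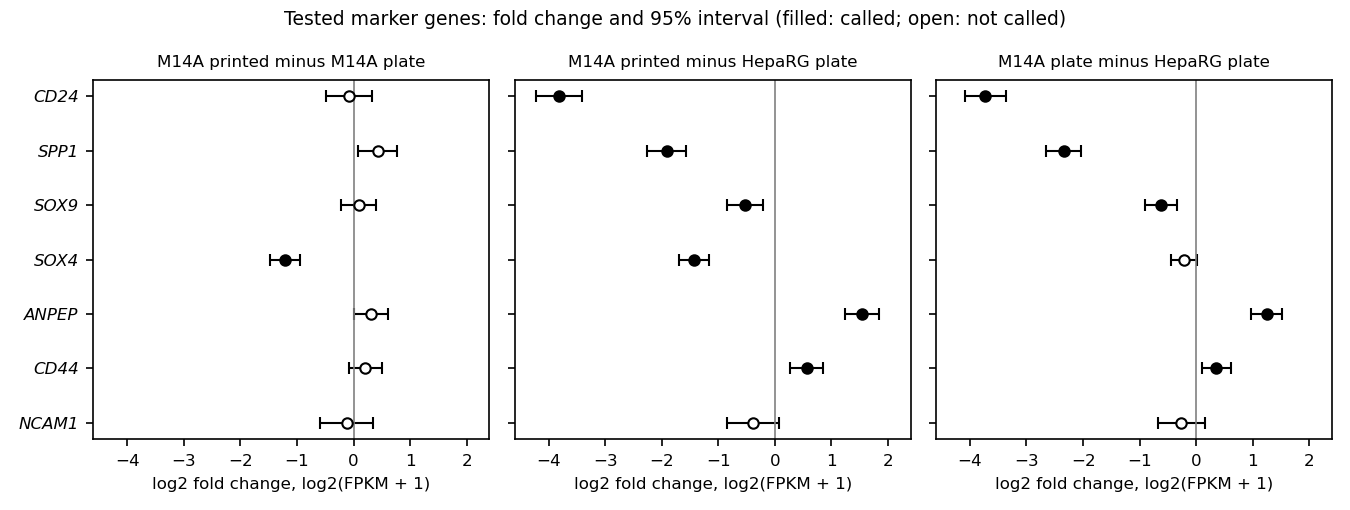
Log2 fold changes of the 7 tested markers from limma on log2(FPKM + 1), with 95% confidence intervals, in printed against plate M14A, printed M14A against HepaRG plate and M14A plate against HepaRG plate cells, from left to right. Filled points passed an adjusted p of 0.05 and open points did not. SOX4 at -1.22 is the filled point in printed against plate M14A cells, and CD24 at -3.73 and SPP1 at -2.34 are the farthest below 0 in M14A plate against HepaRG plate cells.

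ANPEP encodes aminopeptidase N, a membrane enzyme that removes amino acids from the ends of peptides. The gene lies on chromosome 15 at 89784889 to 89815401 on the minus strand, and it had 190.4 and 168 FPKM in printed cells, 155, 147 and 135 FPKM in M14A plate cells and 60.5, 59.9 and 62.1 FPKM in HepaRG cells. The groups did not overlap, with printed cells highest and HepaRG cells lowest, whereas CD24 was highest in HepaRG cells. ANPEP rose 2.39-fold by the means in M14A plate cells, to 145.5 ± 10.1 FPKM against 60.8 ± 1.13 FPKM in HepaRG cells (SD, n = 3 each), with a log2 fold change of 1.24 (SE 0.12, limma adjusted p 9.0e-05). Printed against plate M14A cells gave 0.30 (95% interval -0.00 to 0.60, adjusted p 0.11), a value whose sign depended on the scaling. With equal FPKM totals it was -0.46 (adjusted p 0.0049), a setting that moved the median of all genes from 0.01 to -0.51. Calls in the other direction came without M14A plate library 1 (0.35, adjusted p 0.013) and after removal of the trend with GC content and gene length (0.40, adjusted p 0.0080). ANPEP has more than 1 promoter in the RefSeq annotation, and a gene-level FPKM does not separate the transcripts.

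CD44 encodes the main cell surface receptor for hyaluronan, which also binds osteopontin; the gene lies on chromosome 11 at 35138870 to 35232402, plus strand. It had 7.69 and 8.42 FPKM in printed cells, 6.04, 7.31 and 7.20 FPKM in M14A plate cells and 5.03, 5.17 and 5.14 FPKM in HepaRG cells. The groups were ordered without overlap, but the distances were small beside those of the genes above. The log2 fold change in M14A plate against HepaRG cells was 0.36 (SE 0.11, limma adjusted p 0.044), and the call was lost in 13 of 20 alternatives, at 0.19 to 0.43 over all of them. Leaving out any 1 of the 3 HepaRG libraries, either printed library, or M14A plate library 2 or 3 ended it. In printed against HepaRG cells CD44 was 0.57 (adjusted p 0.0055) as deposited and -0.27 with equal FPKM totals. In printed against plate M14A cells it was 0.21 (95% interval -0.08 to 0.50, adjusted p 0.24), and it was called after removal of the GC content and length trend (0.50, adjusted p 0.0012), whereas equal FPKM totals gave -0.46 (adjusted p 0.062). Antisense transcript CD44-AS1 overlaps 0.840% of its exon bases.

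PROM1 encodes prominin-1, a protein of membrane protrusions; the gene lies on chromosome 4 at 15963076 to 16084378, minus strand. It had 0.724 and 0.929 FPKM in printed cells, 0.244, 0.441 and 0.513 FPKM in M14A plate cells and 0.0857, 0.140 and 0.186 FPKM in HepaRG cells, all below the filter of 1 FPKM. The groups did not overlap and ran in the same order as those of ANPEP and CD44. The group means, 0.826 ± 0.145 FPKM in printed (SD, n = 2), 0.399 ± 0.139 in M14A plate and 0.137 ± 0.0504 in HepaRG cells (SD, n = 3 each), rested on 184, 168 and 65 reads. In the limma fit without the filter, printed cells passed against HepaRG cells (log2 fold change 0.68, adjusted p 0.0059). M14A plate against HepaRG cells (0.29, adjusted p 0.13) and printed against plate M14A cells (0.39, adjusted p 0.094) did not.

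NCAM1 encodes the neural cell adhesion molecule, found on reactive bile ductules as well as on neurons and natural killer cells. Its gene lies on chromosome 11 at 112961247 to 113278436, plus strand, with 5.52% of its exon bases inside other genes. It had 1.10 and 1.71 FPKM in printed cells, 0.988, 1.92 and 2.01 FPKM in M14A plate cells and 1.96, 2.33 and 2.07 FPKM in HepaRG cells. M14A plate libraries 2 and 3 lay inside or at the edge of the HepaRG range, and library 1 lay at less than the lowest printed value. As deposited, NCAM1 was called in none of the comparisons. The limma log2 fold change was -0.26 (95% interval -0.68 to 0.15, adjusted p 0.30) in M14A plate against HepaRG cells. In printed against plate M14A cells it was -0.12 (95% interval -0.59 to 0.34, adjusted p 0.68), and in printed against HepaRG cells -0.39 (95% interval -0.85 to 0.08, adjusted p 0.14). In that last comparison NCAM1 was called lower in 4 of 19 alternatives: with equal FPKM totals (-0.96, adjusted p 0.011), with equal totals without mitochondrial genes (-0.81, adjusted p 0.025), with only these groups fitted (-0.39, adjusted p 0.041) and without M14A plate library 1 (-0.39, adjusted p 0.025).

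**Figure D3:**
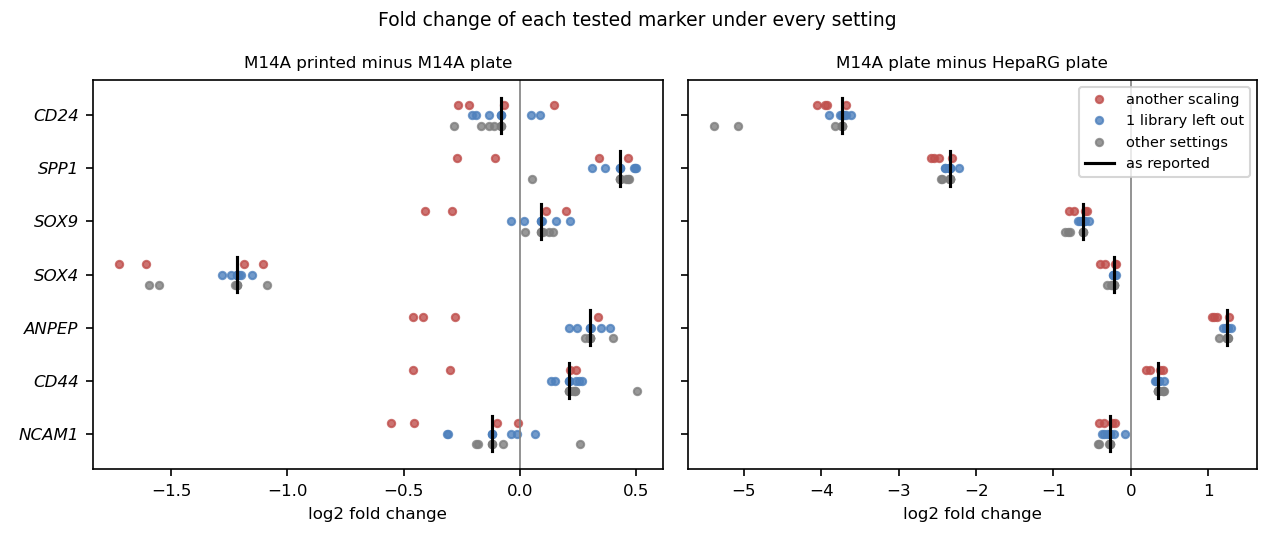
Log2 fold changes of the tested markers in printed against plate M14A cells (left) and M14A plate against HepaRG plate cells (right). Black lines mark the reported value, and points the alternatives: other scalings in red, 1 library left out in blue and other settings in grey. All tested markers keep their side of 0 in M14A plate against HepaRG plate cells. In printed against plate M14A cells SOX4 alone keeps its sign in every setting, at -1.72 to -1.09.

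Lists of other genes were set beside the markers. Of the 15 cholangiocyte markers 9 were tested; 6 rose and 0 fell in M14A plate against HepaRG cells, and 4 rose and 0 fell in printed against plate M14A cells. The median log2 fold changes were 1.03 and 0.48, against -0.04 and 0.01 over all genes. TFF3, a secreted trefoil peptide of mucous epithelia, had 92.1 and 78.9 FPKM in printed cells, 25.7, 24.7 and 23.2 FPKM in M14A plate cells and 0.182, 0.112 and 0.0818 FPKM in HepaRG cells. It changed by 4.51 on the log2 scale in M14A plate cells (limma adjusted p 5.8e-08) and by a further 1.76 in printed cells (adjusted p 3.6e-04). KRT7, a keratin of bile duct cells, had 6.66 and 4.82 FPKM in printed cells, 1.82, 2.04 and 2.22 FPKM in M14A plate cells and 0.467, 0.468 and 0.455 FPKM in HepaRG cells. The shares called were 66.7% in M14A plate against HepaRG cells, with 30.9% over all genes, and 44.4% after printing, with 33.2%. SLC4A2, CLDN4 and KRT19 were tested and not called in M14A plate against HepaRG cells. With equal FPKM totals the count for printed against plate cells was 2 higher and 4 lower, against 483 higher and 6779 lower over all genes. KRT19, the partner keratin of bile duct cells, was picked out after its values were seen: it had 28.7 and 25.1 FPKM in printed cells, 49.0, 11.6 and 11.6 FPKM in M14A plate cells and 41.2, 41.5 and 45.4 FPKM in HepaRG cells. M14A plate library 1 was above the HepaRG range and libraries 2 and 3 far below it, and the log2 fold change in M14A plate against HepaRG cells was -1.13 (limma adjusted p 0.10).

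Of 12 hepatocyte markers 6 were tested, and all 6 rose in M14A plate against HepaRG cells. Their median log2 fold change was 2.55, and 30.9% of all genes were called there. APOA1, 1 of these markers, entered the test only through M14A cells, which favours a rise. The untested markers of this list had group means of 0.319 FPKM or less. ALB (albumin) averaged 81.2 ± 2.97 FPKM in printed cells (SD, n = 2), 26.3 ± 3.01 FPKM in M14A plate cells and 2.19 ± 0.211 FPKM in HepaRG cells (SD, n = 3 each). After printing, 4 rose and 0 fell relative to M14A plate cells, 66.7% of those tested against 33.2% of all genes. With equal FPKM totals 2 were higher and 1 lower, against 483 higher and 6779 lower over all genes. The call of AMBP, a plasma protein precursor (1.26, adjusted p 0.015), was lost without printed library 1 (adjusted p 0.096), without printed library 2 (0.057), with no filter (0.055) and with equal totals (0.51, adjusted p 0.096). Of 10 hepatoblast and oncofetal markers 3 were tested, and 100% of these were called in M14A plate against HepaRG cells, against 30.9% of all genes. KRT18 and KRT8, keratins of simple epithelia, rose in M14A plate cells, and TBX3, a transcription factor of the early hepatoblast, fell (log2 fold change -1.12, limma adjusted p 3.9e-04); DLK1 was at 0 in all groups. The KRT8 call (0.65, adjusted p 0.043) was lost without any 1 of the HepaRG libraries or M14A plate library 2, at adjusted p-values of 0.059 to 0.13. After printing, KRT18 and KRT8 were called higher relative to M14A plate cells, and both calls were lost without any 1 of the HepaRG libraries, either printed library, or M14A plate library 2 or 3, at adjusted p-values of 0.051 to 0.23. As reported, these calls were 66.7% of those tested, against 33.2% of all genes. With equal FPKM totals 0 markers of this list were higher and 1 lower there, against 483 higher and 6779 lower over all genes.

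Among markers of other cell types, the 8 leukocyte genes summed to 10.1 to 12.0 FPKM in printed cells, 6.70 to 10.9 in M14A plate cells and 2.54 to 3.24 in HepaRG cells. TYROBP, 1 gene of this list, was at 0 in all groups. LAPTM5 and CD14, the tested members, rose in M14A plate against HepaRG cells, where 30.9% of all genes were called. The CD14 call was lost without HepaRG library 1 or 2 (limma adjusted p 0.068 and 0.080). The 8 endothelial genes summed to 1.94 to 2.52 FPKM in printed cells, 2.02 to 2.84 in M14A plate cells and 1.09 to 1.27 in HepaRG cells, with CDH5 and CLEC4G at 0 in all groups. Only KDR was tested, through its level in M14A cells, and it rose in M14A plate against HepaRG cells (30.9% of all genes were called). The 9 stellate cell and fibroblast genes, whose list includes genes that liver cell lines in culture also express, summed to 177.9 to 191.7 FPKM in printed cells, 118.7 to 126.6 in M14A plate cells and 42.4 to 46.7 in HepaRG cells. Of its 7 tested genes 3 rose (PDPN, DCN and ACTA2) and 3 fell (LRAT, COL1A1 and PDGFRB) in M14A plate cells, 85.7% against 30.9% of all genes. In printed against plate M14A cells 2 (DES and DCN) rose and 0 fell, 28.6% against 33.2% of all genes. With equal FPKM totals 0 were higher and 3 lower there, against 483 higher and 6779 lower over all genes. The DES call was lost without printed library 1 (adjusted p 0.11), and the DCN call without either printed library or any 1 of the HepaRG libraries (adjusted p 0.065 to 0.14). The part of these lists in the values of the 9 markers was not tested.

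Of the 28 genes of the Notch pathway, which directs biliary fate, 17 were tested. In M14A plate against HepaRG cells 4 rose and 2 fell, 35.3% of those tested against 30.9% of all genes, a share near the background. In printed against plate M14A cells 2 rose and 4 fell, again 35.3%, against 33.2%. With equal FPKM totals 1 was higher and 11 lower, against 483 higher and 6779 lower over all genes. NOTCH2, the receptor whose loss is linked to bile duct paucity in humans, had 5.21 and 6.79 FPKM in printed cells, 24.8, 20.1 and 17.4 FPKM in M14A plate cells and 14.3, 17.4 and 15.5 FPKM in HepaRG cells. The printed libraries lay below all others, and NOTCH2 fell by 1.63 on the log2 scale in printed against plate M14A cells (limma adjusted p 8.3e-04). NOTCH1 had 3.32 and 1.93 FPKM in printed cells, 10.6, 6.45 and 5.29 FPKM in M14A plate cells and 3.58, 3.17 and 3.59 FPKM in HepaRG cells, and fell in printed against plate M14A cells (-1.20, adjusted p 0.0096). That call was lost without printed library 2 (-0.92, adjusted p 0.079). Its rise in M14A plate against HepaRG cells (0.88, adjusted p 0.022) was lost without any 1 of the HepaRG libraries, at adjusted p-values of 0.061 to 0.079.

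Of 17 SOX genes other than SOX4 and SOX9, 3 were tested. In M14A plate against HepaRG cells 1 rose and 0 fell, 33.3% of those tested against 30.9% of all genes, a share near the background. In printed against plate M14A cells 0 rose and 2 fell, 66.7% against 33.2%. SOX12, which shares a subgroup of the family with SOX4, had 9.46 and 4.81 FPKM in printed cells, 23.1, 14.4 and 14.2 FPKM in M14A plate cells and 19.6, 20.5 and 21.5 FPKM in HepaRG cells. Its printed libraries lay below all others, as those of SOX4 did, and it fell in printed against plate M14A cells (-1.19, limma adjusted p 0.012), a call lost without printed library 2 (-0.77, adjusted p 0.091). SOX13 fell as well (-0.81, adjusted p 0.0059), with 1.31 and 0.939 FPKM in printed cells against 3.37, 2.46 and 2.39 FPKM in M14A plate cells. SOX15 rose in M14A plate against HepaRG cells (0.67, adjusted p 0.0042), with 1.67, 1.40 and 1.38 FPKM in M14A plate cells against 0.724, 0.593 and 0.372 FPKM in HepaRG cells.

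For osteopontin and CD44, 22 genes of receptors, hyaluronan synthesis and processing were listed and 11 tested. In M14A plate against HepaRG cells 3 rose and 2 fell, and in printed against plate M14A cells 1 rose and 0 fell, or 45.5% and 9.09% of those tested against 30.9% and 33.2% of all genes. The gene that rose after printing was MMP7, a protease that cleaves osteopontin, with 40.4 and 40.9 FPKM in printed cells, 5.41, 10.7 and 12.8 FPKM in M14A plate cells and 3.47, 3.30 and 3.74 FPKM in HepaRG cells. MMP7 rose by 2.04 on the log2 scale in printed against plate M14A cells (limma adjusted p 0.0015) and by 1.17 in M14A plate against HepaRG cells (adjusted p 0.0085). With equal FPKM totals, 1 gene of the list was higher and 7 lower in printed against plate M14A cells. Over all genes 483 were higher and 6779 lower in that setting.

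Of 16 partners and proteases of EPCAM 10 were tested. In M14A plate against HepaRG cells 3 rose and 1 fell, and in printed against plate M14A cells 3 rose and 0 fell. These are 40% and 30% of those tested, against 30.9% and 33.2% of all genes, shares near the background. With equal FPKM totals printed against plate cells gave 1 higher and 6 lower, against 483 higher and 6779 lower over all genes. CLDN7, a tight junction protein that binds EPCAM, had 42.7 and 34.4 FPKM in printed cells, 19.8, 13.4 and 11.7 FPKM in M14A plate cells and 2.17, 2.06 and 3.05 FPKM in HepaRG cells. It rose in M14A plate cells (2.20, limma adjusted p 8.6e-05) and in printed against plate M14A cells (1.33, adjusted p 0.0037), in the groups where EPCAM itself was listed at 0. BACE2, a protease of the cell surface, averaged 3.47 ± 1.16 FPKM in M14A plate cells against 8.58 ± 0.165 FPKM in HepaRG cells (SD, n = 3 each) and fell (-1.13, adjusted p 0.0016). Of 15 paralogs and modifying enzymes of ANPEP, PROM1 and NCAM1, 9 were tested, and by limma 0 were called in M14A plate against HepaRG cells and 0 in printed against plate M14A cells. At an unadjusted p below 0.05 these counts were 1 and 3, and with voom weights on the recovered reads 0 were called in either comparison.

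**Figure D4:**
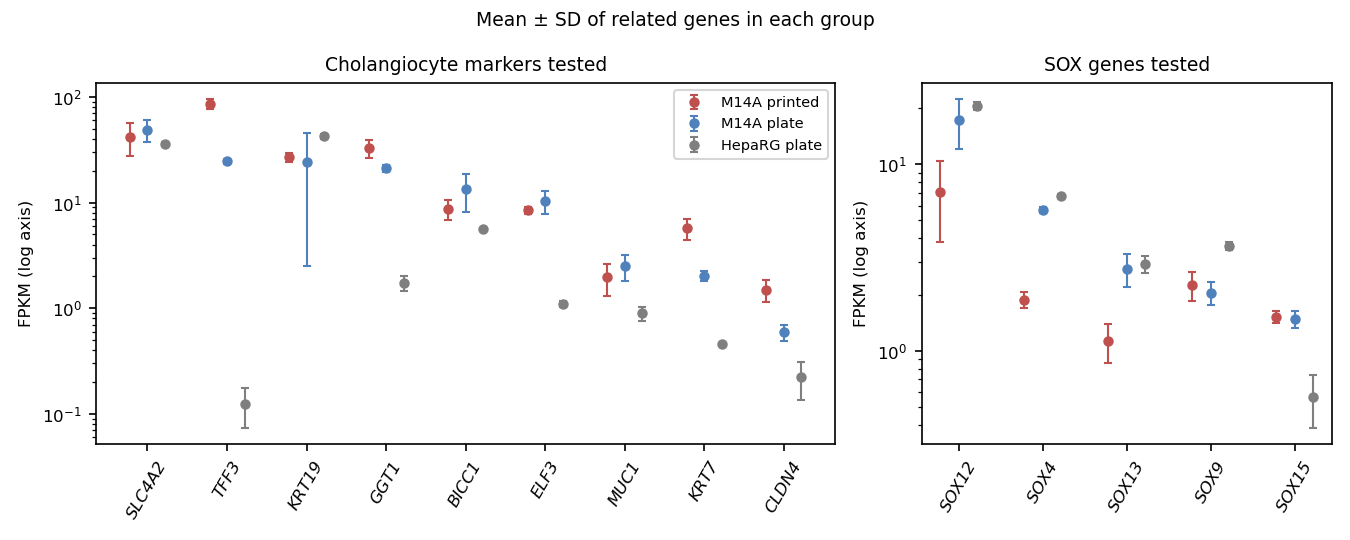
Mean FPKM with SD error bars on a log axis for the 9 tested cholangiocyte markers (left) and the tested SOX genes (right), with M14A printed, M14A plate and HepaRG plate from left to right for each gene. TFF3 and KRT7 stand highest in printed cells, SOX12, SOX4 and SOX13 stand lowest there, and KRT19 has a wide error bar in M14A plate cells.

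For each tested marker, the other protein-coding genes were ranked by the Pearson correlation of log2(FPKM + 1) over the 8 libraries, among 11305 genes. These correlations are descriptions: the libraries fall into 3 groups, so a high value mostly reflects group levels. CD24 was closest to GPNMB, a transmembrane glycoprotein (r = 0.999; means 3.66 FPKM in printed, 3.94 in M14A plate and 35.9 in HepaRG cells), and to SCARA3, a scavenger receptor-like protein (r = 0.999). SPP1 was closest to GCSAML and ADGRE1 (r = 0.998 and 0.997), both low in M14A cells. ANPEP was closest to NPC1L1, a sterol transporter of the canalicular membrane, and FCGRT, the neonatal Fc receptor (r = 0.998 each). CD44 was closest to MAOA, a monoamine oxidase (r = 0.997), and MTTP, which loads lipid onto lipoproteins (r = 0.994). SOX4 was closest to the kinase gene CDK13 and to TRIM45 (r = 0.997 each), SOX9 to YJEFN3 and FHL1 (r = 0.988 and 0.982) and NCAM1 to LNX2 and LYSMD3 (r = 0.994 and 0.989).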

How the data were processed

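Total RNA was taken up in TRIzol, and per the labels' protocols sequencing libraries came from the NEBNext Ultra RNA kit. The submitters' processing notes name HISAT2 2.0.5 and featureCounts 1.5.0-p3; options, strand setting and build were not given in the sources used here. Per gene and library, the authors deposited FPKM for 8 libraries, with gene lengths and coordinates. All 58735 gene positions are identical to GENCODE 29 on GRCh38, so that build is named. The number of value columns with no matching sample was 0.

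FPKM was multiplied by gene length and divided by the smallest such product above 0 in its library, taken as 1 read. The result was whole (to within 0.01) in 99.92 to 99.98% of entries above 0. Read numbers and the authors' denominators come from there and rest on that assumption. The authors' denominators were 0.818 and 0.853 times the reads in printed cells, 0.968 to 1.19 times in M14A plate cells and 1.18 to 1.20 times in HepaRG cells, so FPKM totals differ (254141 to 514152), and a change is relative to that scaling. For a gene of 1 kb, 1 read is worth 0.0435 to 0.0747 FPKM.

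The main test was limma 3.58.1 in R 4.3.3 (eBayes with trend) on log2(FPKM + 1), all 8 libraries in 1 fit with 5 residual degrees of freedom, two-sided, adjusted over all genes tested. The 2 printed libraries are assumed to vary like the others. The code was tested on simulated data. Alternatives changed the pseudocount, filter, scaling, fit or libraries used. A correction for GC content and gene length (splines with 5 degrees of freedom, 12 tested genes without a value) was added after seeing the data. The value of 1 gene of the cell type lists is not reported here. The markers and gene lists were chosen with earlier results of these data known. Genes named from a list are up to 3 called with the largest change in M14A plate against HepaRG cells and up to 2 in printed against plate M14A cells. RefSeq promoter sequences were matched by symbol for 6 of the 9 markers.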

Additional observations from a re-analysis of the deposited data

How the results depend on the processing

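In M14A plate against HepaRG cells, CD24, SPP1, SOX9 and ANPEP were called with their direction in every alternative that tested them. Of the 7 tested markers 5 were called, and 3 with a filter at 5 FPKM. That filter left SOX9 and NCAM1 untested, and CD44 lost its call under it (limma adjusted p 0.058). Over all genes, 4429 were called, 2341 with that filter, which also tested fewer genes, and 2788 to 6117 with 1 library left out. In printed against plate M14A cells, 1 marker was called, 3 with equal FPKM totals, 2 with equal totals without mitochondrial genes, 2 with median-ratio scaling, 2 with quantile normalisation, 3 after removal of the GC content and gene length trend (added after seeing the data), and 1 to 3 with 1 library left out, 3 of them without M14A plate library 1. Over all genes the count was 4770, then 7262 with equal totals, 2416 when only these groups were fitted, and 2495 to 7889 with 1 library left out. In printed M14A against HepaRG cells it was 8065, and 4661 among the fewer genes tested with the filter at 5 FPKM.

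Signs turned in printed against plate M14A cells. With equal totals, equal totals without mitochondrial genes and quantile normalisation ANPEP was -0.46, -0.28 and -0.42, all called. With the first and second of these settings SPP1 was -0.27 and -0.11, CD44 -0.46 and -0.30, and SOX9 -0.41 (adjusted p 0.026) and -0.29. With 1 library left out SOX9 ranged from -0.038 (without printed library 2) to 0.22, CD24 from -0.21 to 0.084 (without M14A plate library 1) and NCAM1 from -0.32 to 0.064 (without printed library 1). CD24 was 0.15 with quantile normalisation and 0.047 without printed library 1, NCAM1 was 0.26 after the GC and length correction, and KRT8 was -0.089 with quantile normalisation. In printed M14A against HepaRG cells CD44 was -0.27 with equal totals and -0.050 with equal totals without mitochondrial genes. Equal totals moved the median of all genes to -0.22 in M14A plate against HepaRG cells, -0.51 in printed against plate M14A cells and -0.77 in printed against HepaRG cells, and the share of higher genes among those called to 36.9% (52.3% as deposited), 6.65% (53.3%) and 13.2% (50.1%). Without mitochondrial genes the last 2 shares were 12.9% and 20.0%. With the filter at 5 FPKM the share in printed against HepaRG cells was 61.2%. The cause of other changes was not tested.

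To look for pairing, each gene's group mean was subtracted and the remaining deviations of the libraries were correlated. For same-numbered M14A plate and HepaRG libraries these correlations were -0.07, 0.08 and -0.16, and 1 of 3 correlated best with its own number. The deviations of printed libraries had 0.49 and 0.36 with those of same-numbered M14A plate libraries and -0.04 and 0.07 with those of HepaRG libraries. With 2 printed libraries the deviations mirror each other, so the values of each pair are not independent. These groups share 2 numbers and no label ties a number to a culture or day, so the samples were treated as sharing only a number. With the replicate block, the CD44 call in M14A plate against HepaRG cells was lost (log2 fold change 0.36, adjusted p 0.071). Depth limits EPCAM, PROM1 and CD24 in M14A cells, which rest on few reads.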
